A study of Mus musculus with 12 samples.

Results

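The genes described here encode the machinery that takes up glucose, breaks it down to pyruvate and lactate, and senses oxygen, together with targets induced in low oxygen. The list held 34 genes, and a gene was measured when the platform annotation gave a probe set that single symbol. Of these, 29 were found among 22180 genes so named, and all 29 were among the 16667 genes tested. Where a gene had more than 1 such probe set, as Hif1a, Pdk1, Pgam1 and Slc2a1 did, the one with the highest mean over the 12 arrays was used. Gpi1, Aldoa, Eno1, Bnip3l and Ankrd37 had no probe set with their symbol alone and are not analysed here. All 29 members lay above the dim level, a log2 value of 3.45, on all 12 arrays, so none passed the filter through a single group.

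Total RNA of mouse samples was hybridised to 12 Affymetrix whole-transcript arrays, 1 per sample. The groups were BALB/c iNKT17 cells (3 arrays), B6 iNKT17 cells (2), B6 gamma-delta 17 cells (2), BALB/c ROR- cells (3) and B6 ROR- cells (2). Invariant natural killer T (iNKT) cells are lipid-recognising T cells whose iNKT17 subset makes interleukin 17, gamma-delta 17 cells are interleukin 17-type T cells with another receptor, and the ROR- cells are named here as the labels name them. No allele, treatment or age was given for any group, the organ and receptor of the ROR- cells were not stated, and the extraction protocol speaks of frozen tissue although the labels name cells. Whether replicates were separate animals is not stated, and the p-values therefore cover only variation among these samples, part of which may be technical.

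Type 17 markers were higher on the arrays labelled type 17. The mean log2 level of 3 T-lineage CD3 genes was 10.9 to 11.4 on all arrays. The mean log2 level of 6 measured type 17 markers was 7.45 to 7.93 on the iNKT17 arrays, 8.59 and 9.39 on the gamma-delta 17 arrays, and 4.03 to 4.44 on 4 of the 5 ROR- arrays. The mean of 3 iNKT markers, Zbtb16, Cd4 and Slamf6, was 5.02 to 5.74 on the iNKT17 arrays and 5.74 and 4.79 on the gamma-delta 17 arrays, against 7.51 to 8.71 on the ROR- arrays, so this list did not set iNKT17 cells apart from gamma-delta 17 cells and was highest in ROR- cells. A pair of arrays stood apart. BALB/c ROR- replicate 2 had a type 17 mean of 5.66, with Il23r at 7.0 against 2.93 to 3.67 on the other ROR- arrays. Il1r1 (7.0 against 4.0 to 5.25) and Blk (7.43 against 5.18 to 5.36) were also raised there. The other markers did not follow: Il17f was 4.48 against 4.10 to 4.38, Il17a (3.79) lay within the other ROR- arrays, and Ccr6 (4.26) was the lowest of them. B6 gamma-delta 17 replicate 1 had a mean of 6.46 over 5 neutrophil markers, against 3.52 to 3.71 on every other array, led by S100a8 at 9.30 and S100a9 at 9.0, while Ly6g, at 3.92, lay within the range of the other arrays. The same array also held more Lyz2 (6.86), Klrd1 (6.03), Cd8b1 (8.24) and Dntt (5.52) than gamma-delta 17 replicate 2, which had 3.59, 3.69, 4.30 and 3.46. Over whole lists, its mean was 4.32 for 8 macrophage, monocyte and dendritic cell markers (3.65 to 3.83 elsewhere) and 5.41 for 4 immature thymocyte markers (3.85 to 4.27 elsewhere).

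Glycolysis turns glucose into pyruvate in the cytosol. Lactate dehydrogenase then reduces pyruvate to lactate, or pyruvate dehydrogenase passes it to mitochondrial respiration, a step that the pyruvate dehydrogenase kinases restrain. When oxygen is plentiful, prolyl hydroxylases of the Egln family mark the alpha subunit of hypoxia-inducible factor (HIF) for destruction by the von Hippel-Lindau protein, and when oxygen falls HIF raises genes of glucose uptake, glycolysis and mitophagy. T cells raise glycolysis on activation, and interleukin 17-producing helper T cells are known for their use of glycolysis and HIF-1.

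HIF binds DNA at the core letters ACGTG or GCGTG, which were searched on both strands in the 250 bases before each member's RefSeq start site (GRCm38.p6, the build of the sequence table, not of the arrays). On the opposite strand these read CACGT and CACGC, and the palindrome CACGTG, which is also the E-box that Myc binds, counts as 2 overlapping matches. Of 46 member promoters, from the 32 members with an entry, 36 held at least 1 match and 22 held ACGTG. Over all 32851 promoters in the table, 38.6% held either form and 16.6% held ACGTG. Slc2a3 and Bnip3l had no entry. The promoters of 4 genes whose levels differed between groups are printed 5′ to 3′ on the gene's own strand, with every match in capitals. Egln3 and Bnip3 were higher in iNKT17 cells, Slc2a1 was lower in them, and Pdk1 differed between strains. The printed windows, not the genes themselves, span chr12:54203875-54204124 (Egln3) and chr7:138909507-138909756 (Bnip3) on the minus strand. On the plus strand they span chr4:119108495-119108744 (Slc2a1) and chr2:71872974-71873223 (Pdk1).
Egln3: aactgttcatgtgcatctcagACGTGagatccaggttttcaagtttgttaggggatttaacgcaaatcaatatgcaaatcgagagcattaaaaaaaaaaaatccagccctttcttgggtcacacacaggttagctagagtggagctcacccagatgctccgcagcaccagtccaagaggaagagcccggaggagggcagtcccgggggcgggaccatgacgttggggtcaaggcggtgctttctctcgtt
Bnip3: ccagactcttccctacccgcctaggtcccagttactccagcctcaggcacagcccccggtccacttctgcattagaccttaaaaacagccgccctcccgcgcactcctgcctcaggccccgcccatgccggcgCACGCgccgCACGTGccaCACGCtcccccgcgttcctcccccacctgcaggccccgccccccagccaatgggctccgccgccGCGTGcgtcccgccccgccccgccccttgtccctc
Slc2a1: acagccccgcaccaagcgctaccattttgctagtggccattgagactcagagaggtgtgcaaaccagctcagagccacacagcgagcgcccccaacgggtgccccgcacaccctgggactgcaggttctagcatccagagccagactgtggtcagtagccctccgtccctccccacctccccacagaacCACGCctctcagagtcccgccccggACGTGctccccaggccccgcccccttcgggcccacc
Pdk1: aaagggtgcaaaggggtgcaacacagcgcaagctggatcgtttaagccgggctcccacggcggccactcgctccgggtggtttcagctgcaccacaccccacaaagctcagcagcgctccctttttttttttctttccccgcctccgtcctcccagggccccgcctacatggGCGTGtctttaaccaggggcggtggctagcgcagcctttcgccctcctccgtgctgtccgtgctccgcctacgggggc
The Egln3 window held 1 match, 229 bases before the start, and the Bnip3 window held 5, of which 2 overlapped in CACGTG. Slc2a1 had 1 match of each form, 61 and 36 bases before the start, and the printed Pdk1 window had a single GCGTG. Pdk1 had 2 annotated starts, and the window printed is that of the more upstream one. A match is a description of these letters and shows no binding.

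**Figure D1:**
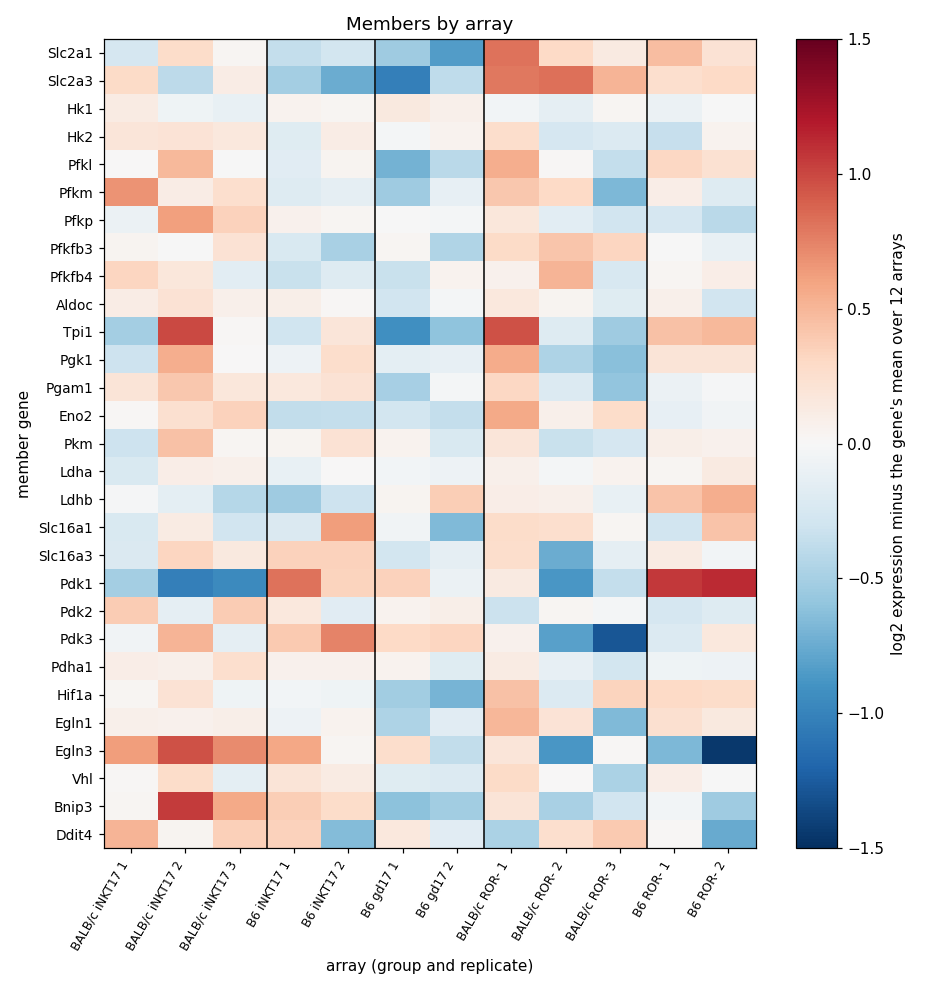
Each row is 1 of the 29 measured members in order of role and each column 1 array, gd17 stands for gamma-delta 17, and the colour is the log2 value minus that gene's mean over the 12 arrays. Pdk1 is low on all BALB/c iNKT17 arrays and high on both B6 ROR- arrays, and BALB/c ROR- replicate 1 is above its gene mean for most members.

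In the comparison of iNKT17 with ROR- cells, values are differences in log2 level. As the mean of both strains, 5 of 29 members passed the threshold of 0.05 on the adjusted p, which is 17.2%, against 12.3% of all genes tested. Here and in every comparison below, the genes tested include dimmer ones: members exceeded the dim level on all 12 arrays, while a tested gene needed only 2. A stricter dim filter asked that all arrays of some group exceed 4.40. With it the same 5 members passed, and 2080 of 11484 genes did. Egln3 and Bnip3 were higher in iNKT17 cells (2 members, where 6.49% of all genes were higher), and Slc2a1, Slc2a3 and Ldhb were lower (3 members, where 5.81% were lower). Members did not move together: 16 differences were positive and 13 negative, from -0.80 to 1.18, with a median of 0.08 against -0.00 over all genes tested. A further 4 members had an unadjusted p under 0.05 without passing, for 9 of 29 in all, against 3945 of 16667 genes. With 2 arrays a group in B6, arrays could lie apart at small differences. Hk1, for example, did not overlap between B6 iNKT17 and B6 ROR- cells, at 0.09 ± 0.13 (limma adjusted p = 0.848). These are bulk samples, so a share of cells with a different level and a different amount of RNA per cell cannot be told apart.

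Both glucose transporters were lower in iNKT17 cells. Slc2a3, the high-affinity transporter GLUT3, stood at 6.26, 5.57 and 6.08 on the BALB/c iNKT17 arrays, against 6.76, 6.79 and 6.47 on the BALB/c ROR- arrays. In B6 it stood at 5.46 and 5.23 in iNKT17 cells, against 6.22 and 6.27 in ROR- cells. All iNKT17 arrays lay below all ROR- arrays of their own strain. The mean difference was -0.80 ± 0.16 log2 units (SE, limma adjusted p = 0.00504), a level 0.573 times that of ROR- cells. The differences within each strain were of like size, -0.71 ± 0.20 in BALB/c (adjusted p = 0.0578) and -0.90 ± 0.24 in B6 (0.0541), and neither passed alone.

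Slc2a1, the basal transporter GLUT1, read 8.23, 8.76 and 8.51 in BALB/c iNKT17 cells, against 9.30, 8.77 and 8.62 in BALB/c ROR- cells. The B6 arrays read 8.12 and 8.21 in iNKT17 cells, against 8.94 and 8.69 in ROR- cells. The groups overlapped in BALB/c and not in B6. Over both strains the difference was -0.52 ± 0.15 (adjusted p = 0.0403). This call did not hold without any one of 8 arrays, among them B6 ROR- replicate 1 (-0.46, adjusted p = 0.169). On the dimmer Slc2a1 probe set the difference was -0.09 ± 0.12 (adjusted p = 0.733), so the pair of probe sets did not give the same answer. The mean over the 12 arrays was 4.60 on the dimmer probe set and 8.48 on the brighter. The dimmer one thus lay close to the array medians of 4.10 to 4.30.

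None of the 8 measured members of upper glycolysis and its control passed in this comparison by limma, and 2 of them, Pfkp and Pfkfb3, had an unadjusted p under 0.05. Hk2, the inducible hexokinase that traps glucose in the cell, stood at 6.32, 6.35 and 6.31 in BALB/c iNKT17 cells, against 6.41, 5.90 and 5.94 in BALB/c ROR- cells. Its B6 values were 5.96 and 6.26 in iNKT17 cells, against 5.80 and 6.20 in ROR- cells. The groups overlapped in both strains, and the difference was 0.18 ± 0.12 (adjusted p = 0.445). Hk1, the constitutive hexokinase, had the smallest spread between replicates of all members (pooled SD 0.0854) and a difference of 0.06 ± 0.08. Among the phosphofructokinase subunits, which set the committed step, Pfkp, the platelet-type subunit, gave 0.38 ± 0.14 (adjusted p = 0.101), while Pfkl and Pfkm gave -0.12 ± 0.17 and 0.11 ± 0.20. Pfkfb3 and Pfkfb4, which make the activator fructose 2,6-bisphosphate, gave -0.28 ± 0.11 (adjusted p = 0.139) and -0.17 ± 0.15, and the aldolase Aldoc gave 0.15 ± 0.11.

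The 5 measured members of lower glycolysis did not pass either, nor had any an unadjusted p under 0.05. Pkm, pyruvate kinase, read 10.09, 10.85 and 10.43 in BALB/c iNKT17 cells, against 10.59, 10.08 and 10.15 in BALB/c ROR- cells. The B6 values were 10.45 and 10.63 in iNKT17 cells, against 10.49 and 10.47 in ROR- cells. The groups overlapped, and the difference was 0.12 ± 0.15 (adjusted p = 0.716). Tpi1, the triose isomerase, had the largest spread of any member (pooled SD 0.603): the BALB/c iNKT17 arrays alone ran between 8.42 and 9.91. Its difference was -0.22 ± 0.31, and those of Pgk1, Pgam1 and Eno2, which act at the later steps, were 0.08 ± 0.22, 0.33 ± 0.16 and -0.19 ± 0.11.

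**Figure D2:**
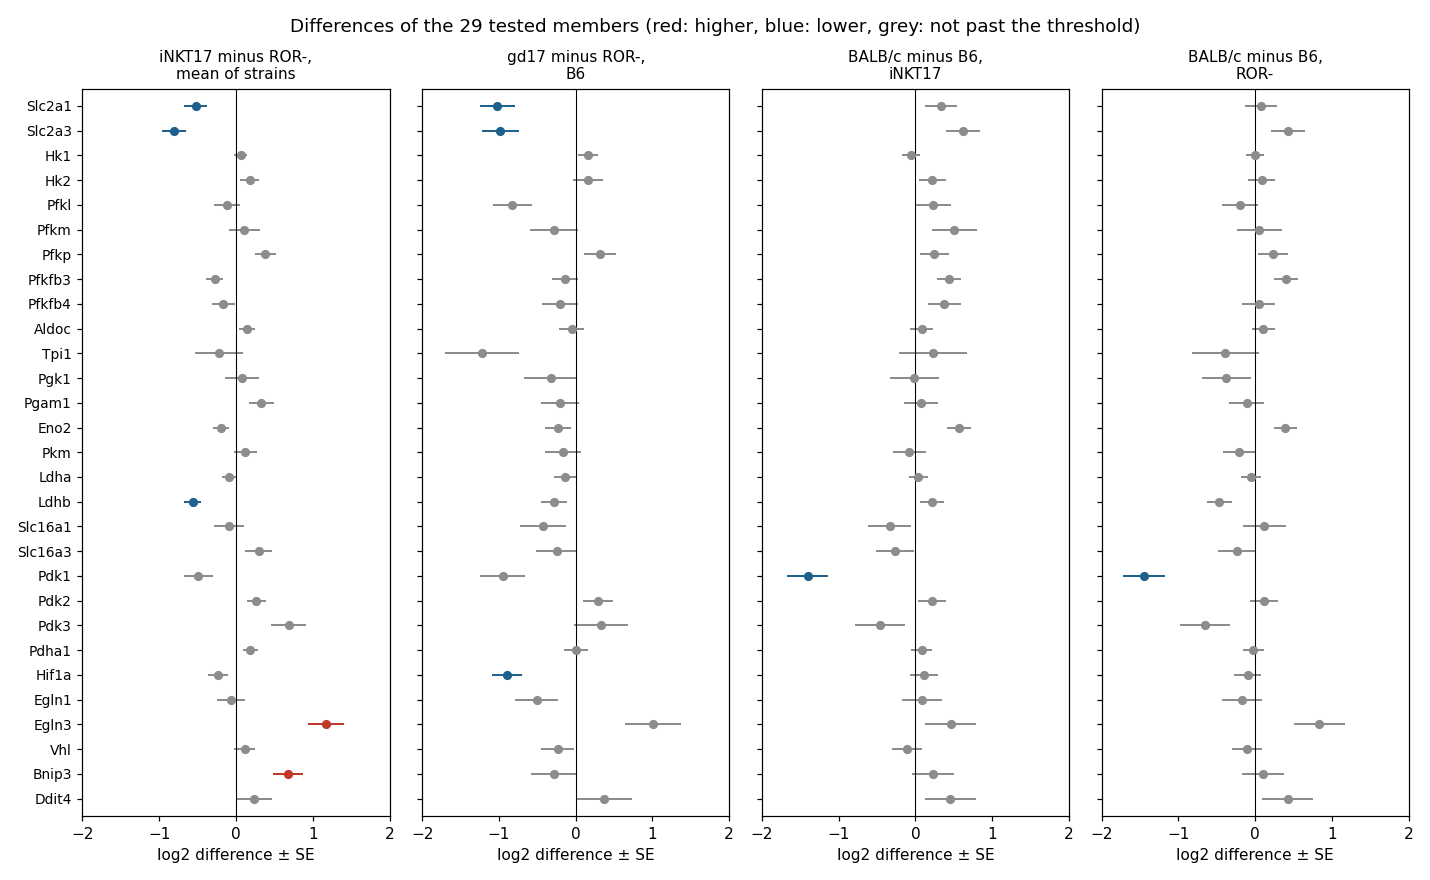
Log2 differences with their standard errors for the 29 members, 1 panel per comparison. Red points are higher and blue points lower with an adjusted p under 0.05, and grey points did not pass. Slc2a1 and Slc2a3 are blue against ROR- cells in both leftmost panels, and Pdk1 is blue in both strain panels.

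At the lactate step, Ldhb was lower in iNKT17 cells. It encodes the lactate dehydrogenase subunit of heart and other oxidative tissues. It read 5.27, 5.13 and 4.85 in BALB/c iNKT17 cells, against 5.38, 5.36 and 5.17 in BALB/c ROR- cells, and the groups overlapped on 1 array. In B6 the values were 4.75 and 4.98 in iNKT17 cells, against 5.71 and 5.83 in ROR- cells, with no overlap. The mean difference was -0.56 ± 0.11 (adjusted p = 0.00519). Within B6 it was -0.91 ± 0.17 (adjusted p = 0.00769) and within BALB/c -0.22 ± 0.14 (0.469), and the difference between those, 0.68 ± 0.22, did not pass (adjusted p = 0.832). Without B6 iNKT17 replicate 1 (adjusted p = 0.0784), or without B6 ROR- replicate 2 (0.0636), the B6 difference no longer passed.

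Ldha, the subunit that favours lactate production and a classical HIF target, did not pass. It stood at 4.81, 5.14 and 5.12 in BALB/c iNKT17 cells, against 5.11, 5.0 and 5.08 in BALB/c ROR- cells, and at 4.92 and 5.04 in B6 iNKT17 cells, against 5.07 and 5.17 in B6 ROR- cells. The arrays overlapped in BALB/c, and the mean difference was -0.09 ± 0.09 (adjusted p = 0.628). The mean over the 12 arrays of its only probe set was 5.03, where the array medians over all probe sets were 4.10 to 4.30. How well this probe set follows the Ldha level was not tested. The lactate carriers Slc16a1, which works in both directions, and Slc16a3, an exporter, gave -0.09 ± 0.20 and 0.30 ± 0.17.

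Among the regulators of pyruvate dehydrogenase, no member passed as the mean of both strains. Pdk3, a kinase that inhibits the enzyme, had the largest positive difference, 0.69 ± 0.23 (adjusted p = 0.0770). It stood at 6.55, 7.12 and 6.48 in BALB/c iNKT17 cells, against 6.67, 5.80 and 5.33 in BALB/c ROR- cells, so a single ROR- array, replicate 1, overlapped the iNKT17 arrays. Without that array Pdk3 passed, at 0.87 (adjusted p = 0.00491). Pdk2, a related kinase, gave 0.27 ± 0.13 and Pdha1, a catalytic subunit of the dehydrogenase, 0.19 ± 0.10. Pdk1, the kinase that HIF is known to induce, gave -0.49 ± 0.19 (adjusted p = 0.136) on its brighter probe set and -0.54 ± 0.13 (0.0149) on its dimmer one.

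Of the oxygen sensors, Egln3 was higher in iNKT17 cells, by more than any other member. It encodes prolyl hydroxylase PHD3, which is itself induced by HIF. The BALB/c iNKT17 arrays read 8.52, 8.85 and 8.60, against 8.08, 7.02 and 7.91 on the BALB/c ROR- arrays. In B6 the arrays read 8.48 and 7.92 in iNKT17 cells, against 7.22 and 6.44 in ROR- cells. Within each strain all iNKT17 arrays lay above all ROR- arrays. The mean difference was 1.18 ± 0.23 (adjusted p = 0.00539), a 2.26-fold level, and it passed under all 9 other settings and without any one of the 12 arrays. In B6 the difference alone was 1.37 ± 0.36 (adjusted p = 0.0479) and in BALB/c 0.99 ± 0.30 (0.0737). The B6 call was lost without B6 ROR- replicate 2 (0.98, adjusted p = 0.299) and without 7 other arrays.

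Hif1a, the oxygen-sensitive subunit of HIF-1, read 9.42, 9.60 and 9.32 in BALB/c iNKT17 cells, against 9.82, 9.17 and 9.72 in BALB/c ROR- cells. In B6 it read 9.34 and 9.32 in iNKT17 cells, against 9.68 and 9.66 in ROR- cells. The groups overlapped only in BALB/c, where ROR- replicate 2 was lowest. The difference was -0.23 ± 0.13 (adjusted p = 0.303), and without that array, the one with higher Il23r, Il1r1 and Blk, it was -0.33 (adjusted p = 0.0428). Egln1, the main hydroxylase of HIF, and Vhl, the von Hippel-Lindau gene, gave -0.07 ± 0.18 and 0.11 ± 0.14.

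Bnip3, a hypoxia-induced mitophagy receptor, was higher in iNKT17 cells. Its levels were 6.95, 7.97 and 7.50 in BALB/c iNKT17 cells, against 7.12, 6.44 and 6.64 in BALB/c ROR- cells. The B6 levels were 7.29 and 7.20 in iNKT17 cells, against 6.88 and 6.39 in ROR- cells. The groups overlapped in BALB/c only. The mean difference was 0.68 ± 0.19 (adjusted p = 0.0408), and the call was lost when any of 10 arrays was left out, for example BALB/c iNKT17 replicate 2 (0.55, adjusted p = 0.0651). Ddit4, an inhibitor of mTORC1 signalling that stress and hypoxia induce, gave 0.23 ± 0.24 (adjusted p = 0.627).

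**Figure D3:**
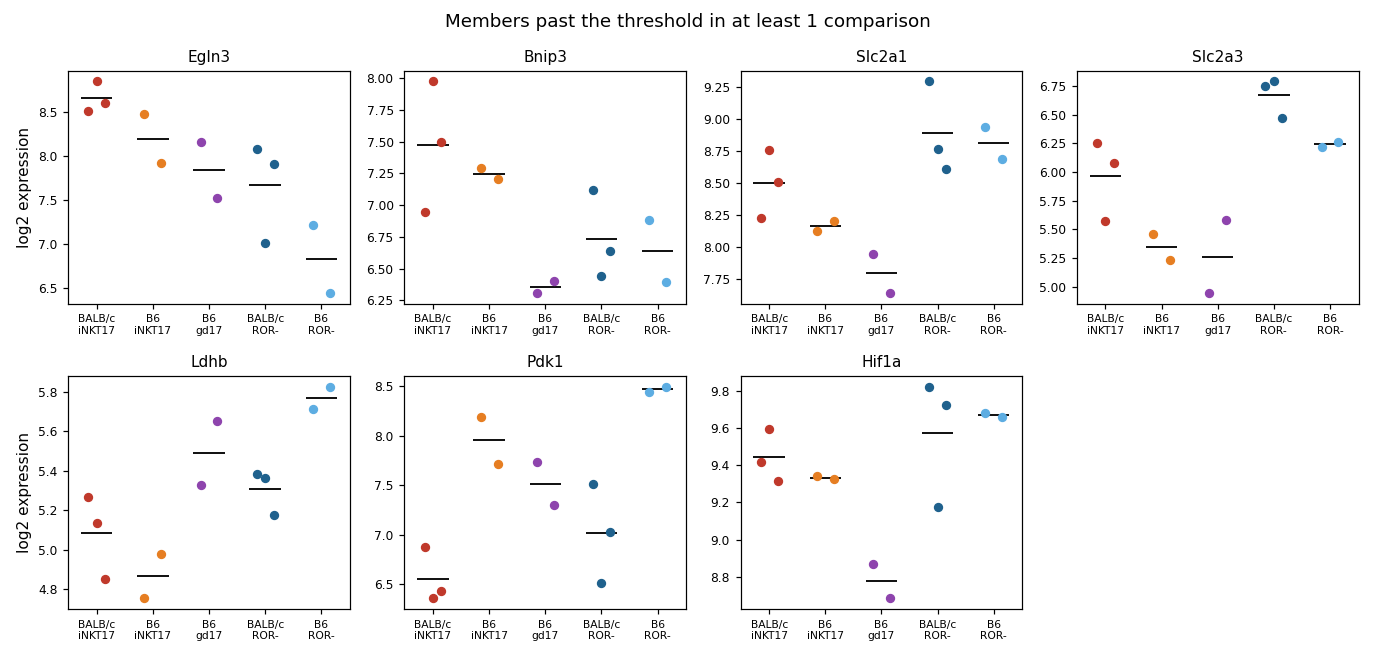
Log2 expression of the 7 members that passed the threshold in at least 1 comparison, with 1 point per array and a line at each group mean; axes differ between panels. Egln3 is higher and Slc2a3 lower on every iNKT17 array than on the ROR- arrays of the same strain, and Hif1a and Slc2a1 are lowest in B6 gamma-delta 17 cells.

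Taken within each strain, few members passed. No member did in BALB/c, where 6.97% of all genes did. There 5 of 29 members had an unadjusted p under 0.05, against 2978 of 16667 genes. Without BALB/c ROR- replicate 1 the BALB/c count was 3: Egln3 (1.19, adjusted p = 0.0478), Pdk3 (1.15, 0.0108) and Pgam1. In B6 there were 2 members, Egln3 and Ldhb, or 6.9% of 29, against 5.99% of all genes. The difference between the strains in the iNKT17 minus ROR- contrast passed for no member and for 0.084% of all genes. Ldhb was the 1 member with an unadjusted p under 0.05, which 669 of 16667 genes also had.

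The strain comparison asked how BALB/c cells differ from B6 cells of the same type. Pdk1 was the 1 member that passed, and it was lower in BALB/c in both cell types. In iNKT17 cells it stood at 6.88, 6.35 and 6.43 on the BALB/c arrays, against 8.19 and 7.72 on the B6 arrays. In ROR- cells it stood at 7.52, 6.51 and 7.03 on the BALB/c arrays, against 8.44 and 8.5 on the B6 arrays. The strains did not overlap in either cell type. On the brighter probe set the differences were -1.40 ± 0.27 in iNKT17 cells (adjusted p = 0.0260) and -1.45 ± 0.27 in ROR- cells (0.0252). The signals there were 0.378 and 0.366 times those of B6. Whether the probes match BALB/c and B6 sequence equally well was not tested for any gene. That 1 member is 3.45% of 29, against 1.48% of all genes in iNKT17 cells (0.81% lower) and 1.22% in ROR- cells (0.84% lower).

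The Pdk1 strain difference could also be read on a second probe set. The dimmer probe set gave 5.64, 5.60 and 5.67 in BALB/c iNKT17 cells, against 6.45 and 6.20 in B6 iNKT17 cells. Its ROR- values were 6.20, 5.92 and 6.45 in BALB/c, against 6.98 and 6.71 in B6. The strains were again apart on every array, and the difference was smaller: -0.69 ± 0.18 in iNKT17 cells (adjusted p = 0.0999) and -0.65 ± 0.18 in ROR- cells (0.131). On the brighter probe set the iNKT17 difference no longer passed when BALB/c iNKT17 replicate 3 or either B6 iNKT17 array was removed (adjusted p up to 0.159). For ROR- cells the same held on removing BALB/c ROR- replicate 2 or 3 or either B6 ROR- array (up to 0.222).

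**Figure D4:**
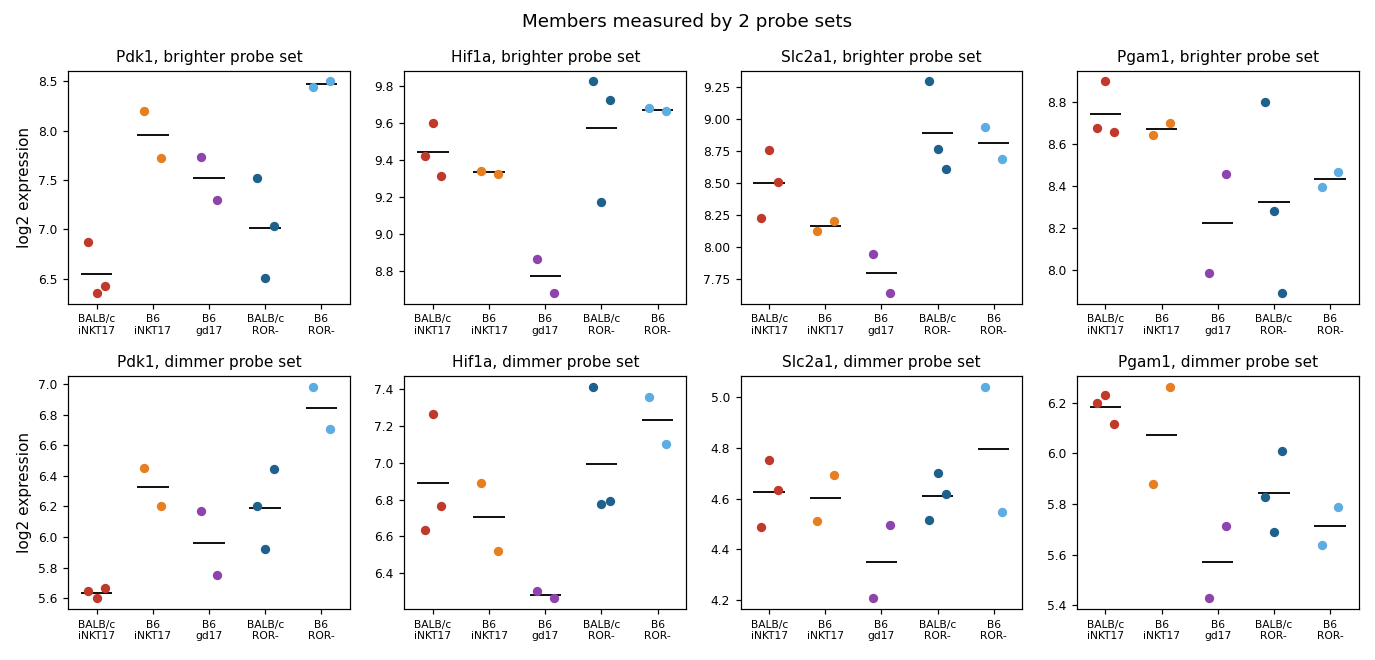
Log2 expression of the 4 members measured by 2 probe sets, the brighter in the upper row and the dimmer in the lower row, with 1 point per array and a line at each group mean; axes differ between panels and levels of different probe sets are not comparable. Pdk1 is lower in BALB/c on both probe sets, and on the dimmer Slc2a1 probe set both gamma-delta 17 arrays again lie below both B6 ROR- arrays while the iNKT17 and ROR- arrays overlap in both strains.

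Other members showed smaller strain differences that did not pass. In iNKT17 cells, 4 of 29 members, Pdk1 among them, had an unadjusted p under 0.05, against 2103 of 16667 genes. The other 3 members were Slc2a3 at 0.62 ± 0.22 (adjusted p = 0.247), Eno2, the neuronal-type enolase, at 0.57 ± 0.15 (0.123), and Pfkfb3 at 0.44 ± 0.16 (0.241). The same 3 genes gave 0.43 ± 0.22, 0.40 ± 0.15 and 0.40 ± 0.16 in ROR- cells, with adjusted p of 0.483, 0.326 and 0.324. In ROR- cells Egln3 gave 0.84 ± 0.33 (0.333) and Ldhb -0.46 ± 0.16 (0.254). Members with a positive difference numbered 21 in iNKT17 cells (median 0.21, against 0.03 over all genes) and 15 in ROR- cells (median 0.00, against 0.01).

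In B6, gamma-delta 17 cells were compared with the same ROR- arrays that served the B6 iNKT17 comparison. Here 3 of 29 members passed, all lower in gamma-delta 17 cells, or 10.3%, against 6.02% of all genes in either direction and 3.41% lower. They were Slc2a1, Slc2a3 and Hif1a. With the stricter dim filter the same 3 members passed, and 1054 of 11484 genes did. The differences of all members leaned downwards, 21 negative and 8 positive, with a median of -0.23 against 0.01 over all genes.

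Slc2a1 read 7.95 and 7.64 in gamma-delta 17 cells, against 8.94 and 8.69 in ROR- cells, a difference of -1.02 ± 0.23 (adjusted p = 0.0221). Its dimmer probe set gave -0.44 ± 0.18 (adjusted p = 0.216). Slc2a3 read 4.94 and 5.58 in gamma-delta 17 cells, against 6.22 and 6.27 in ROR- cells, a difference of -0.98 ± 0.24 (0.0357). Hif1a read 8.87 and 8.68 in gamma-delta 17 cells, against 9.68 and 9.66 in ROR- cells, a difference of -0.90 ± 0.20 (0.0184), and its dimmer probe set gave -0.95 ± 0.25 (0.0484). For each of these genes both gamma-delta 17 arrays lay below both ROR- arrays. Such separation also occurred at small differences: it held for Ldha too, at -0.14 ± 0.14 (limma adjusted p = 0.675). The B6 iNKT17 arrays, set beside the same ROR- arrays, had given -0.65 ± 0.23 for Slc2a1 (adjusted p = 0.162), -0.90 ± 0.24 for Slc2a3 and -0.34 ± 0.20 for Hif1a (0.465).

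Leaving out the gamma-delta 17 array with neutrophil transcripts changed these values unevenly. Without that array, replicate 1, Hif1a was -0.99 (adjusted p = 0.0495), Slc2a1 -1.18 (0.0437) and Slc2a3 -0.66 (0.266). The transcripts' part in the Slc2a3 difference was not tested. All 3 calls were lost without either B6 ROR- array, those of Slc2a1 and Hif1a also without gamma-delta 17 replicate 2, and that of Slc2a3 also without BALB/c iNKT17 replicate 3 (adjusted p = 0.0533). The Slc2a3 call was lost as well when only the gamma-delta 17 and B6 ROR- arrays entered the model (adjusted p = 0.0682).

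Further members had differences of similar size without passing. Tpi1 read 8.0 and 8.32 in gamma-delta 17 cells, against 9.36 and 9.41 in ROR- cells, a difference of -1.22 ± 0.48 (adjusted p = 0.198). Egln3 read 8.16 and 7.52 in gamma-delta 17 cells, against 7.22 and 6.44 in ROR- cells, a difference of 1.01 ± 0.36 (0.152). Pdk1 gave -0.95 ± 0.30 (0.0921), with 7.73 and 7.30 in gamma-delta 17 cells, against 8.44 and 8.5 in ROR- cells, and it passed on the dimmer probe set (-0.88 ± 0.19, 0.0194). Pfkl gave -0.82 ± 0.26 (0.0961). Hk2 read 6.11 and 6.20, Pkm 10.46 and 10.18, and Ldha 4.99 and 4.96 in gamma-delta 17 cells; their differences of 0.16, -0.16 and -0.14 had adjusted p-values of 0.748, 0.796 and 0.675.

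Between iNKT17 and gamma-delta 17 cells of B6 no member passed, where 0.168% of all genes did. An unadjusted p under 0.05 was seen for 3 of 29 members, against 1417 of 16667 genes. Bnip3 stood at 7.29 and 7.20 in iNKT17 cells, against 6.31 and 6.40 in gamma-delta 17 cells (0.89 ± 0.30, adjusted p = 0.428). Ldhb stood at 4.75 and 4.98 in iNKT17 cells, against 5.33 and 5.65 in gamma-delta 17 cells (-0.62 ± 0.17, 0.292). Hif1a stood at 9.34 and 9.32 in iNKT17 cells, against 8.87 and 8.68 in gamma-delta 17 cells (0.56 ± 0.20, 0.469). The arrays did not overlap for any of these genes, and with 2 arrays a group the differences were not separable from the spread after adjustment. Non-overlap did not set these genes apart. It was also seen for Hk1, Pfkp and Eno2, whose differences were only -0.07, 0.06 and -0.05.

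The members had a median pooled SD between replicates of 0.266, against 0.180 over all genes tested. These groups of genes were not matched for level, so the larger spread is not shown to be particular to the members. The replicates were ordered unevenly. BALB/c ROR- replicate 1 was the highest of its 3 arrays for 23 of 29 members (79.3%), against 30.4% of all genes, and BALB/c ROR- replicate 3 the lowest for 16 (55.2%, against 36.2%). In BALB/c iNKT17 cells, replicate 2 was highest for 17 members (58.6%, against 34.8%). The mean level over all members was 7.0, 7.19 and 7.03 in BALB/c iNKT17 cells, against 7.23, 6.87 and 6.77 in BALB/c ROR- cells, and 6.96 and 6.97 in B6 iNKT17 cells and 6.76 and 6.76 in B6 gamma-delta 17 cells, against 7.02 and 6.97 in B6 ROR- cells.

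The wider pathways were read from lists that hold no member. Of 36 tested genes of the hypoxia and HIF pathway, 5 were higher and 7 lower in iNKT17 cells as the mean of both strains, where 6.49% of all genes were higher and 5.81% lower, with a list median of -0.04 against -0.00 over all genes. Arnt2, a partner subunit of HIF-alpha proteins, stood at 7.92, 7.78 and 7.93 in BALB/c iNKT17 cells, against 5.55, 5.60 and 5.24 in BALB/c ROR- cells. In B6 it stood at 7.24 and 7.01 in iNKT17 cells, against 4.97 and 4.63 in ROR- cells. Its difference of 2.37 ± 0.13 (adjusted p = 3.05e-07) was the largest of the list. Plin2, a lipid droplet protein, gave 1.42 ± 0.26 (adjusted p = 0.00285), while Bhlhe40, a transcription factor that hypoxia induces, gave -0.95 ± 0.21 (0.0122). Bhlhe40 no longer passed on removing B6 iNKT17 replicate 2 (adjusted p = 0.0653) or B6 ROR- replicate 2 (0.0614). Ndrg1, another hypoxia-induced gene, gave -0.83 ± 0.20 (0.0173), which did not hold on removing B6 iNKT17 replicate 2 (0.0809) or B6 ROR- replicate 1 (0.0992).

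Of the 22 tested genes of glycolysis and pyruvate handling outside the members, 1 was higher and 1 lower in iNKT17 cells (median 0.05), against 12.3% of all genes in either direction. Mpc1, a subunit of the mitochondrial pyruvate carrier, gave 1.57 ± 0.44 (adjusted p = 0.0387). It read 7.11, 7.53 and 7.41 in BALB/c iNKT17 cells, against 6.04, 6.35 and 3.48 in BALB/c ROR- cells, with the last array far below the others, and its call was lost when any of 9 arrays was left out (adjusted p up to 0.134). Eno3, the muscle-type enolase, gave -0.47 ± 0.12 (0.0219) and is named because it was the 1 lower gene, after its value was seen. Among 20 tested genes of nutrient and mTORC1 control none was higher and 1 was lower (median -0.01). It was Myc, a transcription factor that drives glycolytic genes, at 8.48, 8.64 and 8.18 in BALB/c iNKT17 cells, against 10.45, 10.01 and 10.25 in BALB/c ROR- cells, and at 7.79 and 8.44 in B6 iNKT17 cells, against 10 and 9.93 in B6 ROR- cells. The difference was -1.83 ± 0.16 (adjusted p = 1.08e-05), and it passed without any one of the 12 arrays.

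Within BALB/c, 3 hypoxia-list genes were higher and 1 lower in iNKT17 cells, against 6.97% of all genes in either direction. Epas1, which encodes HIF-2 alpha, gave 1.3 ± 0.15 (adjusted p = 1.86e-04), Arnt2 2.41 ± 0.16 (4.21e-06) and Plin2 1.46 ± 0.32 (0.0168). Car12, a carbonic anhydrase of the cell surface, was the lower one, at -0.89 ± 0.21 (0.0233). Plin2 no longer passed on removing any of 3 arrays (adjusted p up to 0.0752) and Car12 on removing any of 4 (up to 0.101). Mpc1 gave 2.06 ± 0.56 (0.0498), a call lost on removing any of 9 arrays, and was 1.15 without BALB/c ROR- replicate 3, while Myc gave -1.80 ± 0.20 (1.64e-04).

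Within B6, 1 hypoxia-list gene was higher and 2 were lower in iNKT17 cells, against 5.99% of all genes. Arnt2 gave 2.33 ± 0.20 (adjusted p = 2.91e-05), Gbe1, the glycogen branching enzyme, -0.99 ± 0.15 (0.00225) and Ndrg1 -1.33 ± 0.31 (0.0247). Ndrg1 did not hold without B6 iNKT17 replicate 2 (-0.86, 0.246) or B6 ROR- replicate 1 (0.250). Myc gave -1.85 ± 0.24 (6.71e-04). Suclg1, a subunit of the citric acid cycle enzyme succinate-CoA ligase, gave 0.61 ± 0.16 (0.0433), a call lost on removing any of 10 arrays (adjusted p up to 0.300).

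In the strain comparison 4 of the 36 hypoxia-list genes were higher in BALB/c iNKT17 cells than in B6 iNKT17 cells and none was lower (median 0.22 against 0.03 over all genes), where 1.48% of all genes passed in either direction. Epas1 stood at 6.83, 6.32 and 6.38 in BALB/c, against 4.64 and 4.40 in B6, a difference of 1.99 ± 0.16 (adjusted p = 8.40e-05). Ndrg1 gave 1.61 ± 0.28 (0.0149), Gbe1 1.46 ± 0.14 (2.52e-04) and Stc2, a secreted glycoprotein, 1.48 ± 0.31 (0.0402). The Stc2 call was lost when any of 9 arrays was left out (adjusted p up to 0.301), and that of Ndrg1 without B6 iNKT17 replicate 2 (1.14, 0.237) or BALB/c iNKT17 replicate 1 or 3. The difference between strains in the iNKT17 minus ROR- contrast passed for Epas1 (1.52 ± 0.23, adjusted p = 0.0447), a call lost when any of 11 arrays was left out (adjusted p up to 0.286). Between strains in ROR- cells 1 list gene passed, against 1.22% of all genes: Slc1a5, a glutamine transporter of the nutrient list, at 8.67, 8.31 and 8.34 in BALB/c, against 9.29 and 9.26 in B6 (-0.83 ± 0.15, adjusted p = 0.0178). It no longer passed on removing any of 4 arrays (up to 0.170).

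**Figure D5:**
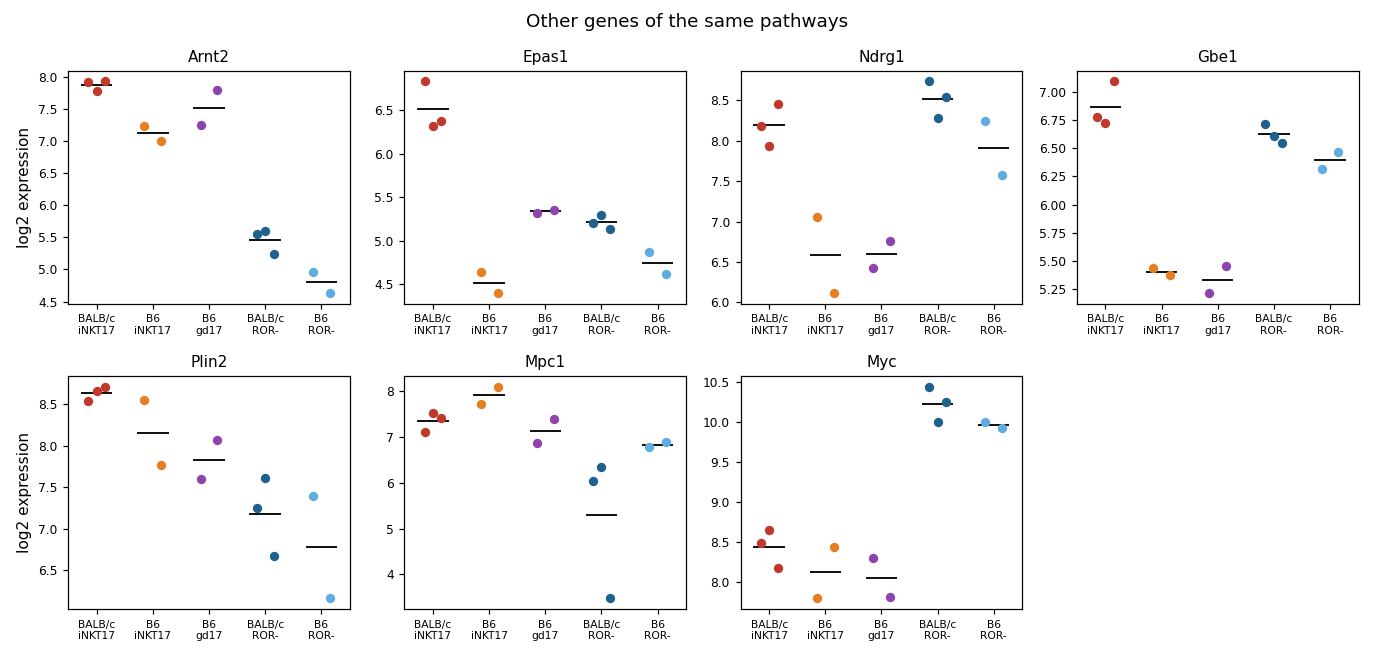
Log2 expression of 7 pathway genes that are not members, with 1 point per array and a line at each group mean; axes differ between panels. Arnt2 is higher in iNKT17 and gamma-delta 17 cells than in ROR- cells, Myc is lower in them, and Epas1, Ndrg1 and Gbe1 are higher in BALB/c iNKT17 than in B6 iNKT17 cells.

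Against ROR- cells, gamma-delta 17 cells of B6 had 1 of the 36 hypoxia-list genes higher, Arnt2 (2.72 ± 0.20, adjusted p = 1.24e-05), and 5 lower (median -0.20 against 0.01 over all genes), where 6.02% of all genes passed and 3.41% were lower. Among the lower ones, Ndrg1 gave -1.32 ± 0.31 (0.0265), Gbe1 -1.06 ± 0.15 (0.00136) and Mxi1, an antagonist of Myc, -1.01 ± 0.25 (0.0374). Myc gave -1.92 ± 0.24 (5.37e-04), with 8.30 and 7.80 in gamma-delta 17 cells, and Slc3a2, a subunit of amino acid transporters, -0.99 ± 0.26 (0.0453). Without gamma-delta 17 replicate 1, Ndrg1 was -1.15 (0.166), Mxi1 -0.69 (0.272) and Slc3a2 -0.79 (0.272), and their calls were lost on removing any of 3 arrays for Ndrg1, 5 for Mxi1 and 10 for Slc3a2, while Arnt2, Gbe1 and Myc passed without any one of the 12 arrays.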

How the data were processed

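The deposited table held values on a log scale for 41345 probe sets on each of 12 arrays; per the submitters' processing notes the tool was oligo. Its version and settings were not given in the sources used here. No base is named for the logarithm, and the deposited values were read as log2 from their range. Names came from the platform annotation: 23521 probe sets had 1 symbol, 1814 several and 16010 none. A gene was tested where 2 or more arrays exceeded the 30th percentile of named values (3.45), which kept 16667 genes and set aside 5513. A group-means model over all 5 groups was fitted with limma 3.58.1 (lmFit, eBayes) in R 4.3.3, with 7 residual degrees of freedom, with Benjamini-Hochberg adjustment over all genes tested. Groups of 2 or 3 arrays limit the precision. The members, the lists and the tests were chosen with earlier results of these data known. Values on every array were given for members past the threshold and for Hif1a, Slc2a1, Hk2, Ldha, Pkm and Pdk1, and up to 6 list genes past the threshold with the largest differences were named in each comparison. Alternatives changed scaling, filter, probe sets, model, replicate block and arrays left out, and 2 were added after seeing the data: the dimmer probe set, and both arrays with unusual markers left out. The fit was tested on simulated data.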

Additional observations from a re-analysis of the deposited data

How the results depend on the processing

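Over 943 alternatives for 41 differences past the threshold (members and named list genes), the direction was kept in all and the call in 759. Some alternatives, such as another dim filter or leaving out an array of a group not compared, cannot change the difference itself. In those the direction was fixed in advance and only the adjusted p could move. Of the 41 differences, 17 kept the call under every alternative planned. Among members these included Egln3, Slc2a3 and Ldhb as the mean of both strains. Of 895 alternatives for 39 differences that did not pass, 36 passed and 1 turned round, Slc2a1 in BALB/c iNKT17 minus ROR-, at 0.014 on the dimmer probe set. Whether replicate numbers paired samples was not settled. Deviations of same-numbered arrays correlated from -0.46 to 0.47, and differently numbered arrays were not compared. In a group of 2 arrays the deviations mirror each other, so both replicates of B6 iNKT17 with B6 ROR- gave the same 0.47. With the replicate block the mean-of-strains count of members was still 5, with Pdk3 and Pdk1 in and Slc2a1 and Bnip3 out. In gamma-delta 17 minus ROR- the count was still 3 with the block, with Pdk1 in and Slc2a3 out (limma adjusted p = 0.0658). Counts of members moved as follows. In BALB/c 0 passed by limma, and 5 had an unadjusted p under 0.05, against 2978 of 16667 genes. There 1 passed with quantile normalization, a stricter filter, array weights or the replicate block. In B6, 2 became 1 with quantile normalization, no filter, or trend and robust estimation. The strain call of Pdk1 went to 0 in iNKT17 cells on the dimmer probe set, and to 0 in ROR- cells on it, with compared groups only, or with both unusual arrays left out. In gamma-delta 17 minus ROR-, 3 became 5 with compared groups only, where Tpi1, Pdk1 and Pfkl passed and Slc2a3 did not, and 1 with both unusual arrays left out. Over all genes, the strain-by-type count of 14 became 8 with quantile normalization and 6 with the block, the iNKT17 strain count of 247 became 549 with array weights, the ROR- strain count of 203 became 82 with compared groups only, and the iNKT17 minus gamma-delta 17 count of 28 became 2 with compared groups only and 56 with both unusual arrays left out. The cause was not tested in any of these. Leaving out 1 array at a time gave 3 to 6 members and 1341 to 2051 genes for the mean of strains, 0 to 3 and 742 to 1150 in BALB/c, 0 to 3 and 492 to 1058 in B6, and 0 members and 0 to 15 genes for the strain-by-type difference. It gave 0 to 1 and 77 to 530 between strains in iNKT17 cells, 0 to 1 and 68 to 259 in ROR- cells, 0 to 5 and 530 to 1151 for gamma-delta 17 minus ROR-, and 0 members and 5 to 63 genes for iNKT17 minus gamma-delta 17. A lone array in a group was assumed to vary like the others.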

Other observations

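Genes downstream of pyruvate were read from a further pair of lists, and the genes named here were chosen after their values were seen. Of 20 tested citric acid cycle genes, 3 were higher and 1 lower in iNKT17 cells than in ROR- cells as the mean of both strains (list median 0.08), or 4 of 20 against 12.3% of all genes. Suclg1, the alpha subunit of succinate-CoA ligase, stood at 9.46, 9.39 and 9.29 in BALB/c iNKT17 cells, against 8.78, 8.85 and 8.43 in BALB/c ROR- cells, and at 9.06 and 9.25 in B6 iNKT17 cells, against 8.48 and 8.62 in B6 ROR- cells. All iNKT17 arrays lay above all ROR- arrays of their strain, and the difference was 0.65 ± 0.10 (SE, limma adjusted p = 0.00106). Sucla2, the ligase's beta subunit, gave 0.44 ± 0.10 (0.00879). The isocitrate dehydrogenases went opposite ways: Idh1, the cytosolic enzyme, gave 0.68 ± 0.14 (0.00749) and Idh2, the mitochondrial one, -0.56 ± 0.16 (0.0436). Of 7 tested pentose phosphate genes, Taldo1, transaldolase, was the 1 that was higher (0.47 ± 0.13, adjusted p = 0.0311).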
